A study of Chromochloris zofingiensis with 6 samples.

Results

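This is an account of 107 nuclear genes of the green microalga Chromochloris zofingiensis whose transcript levels differed between control libraries, which received no drug. Each had at least 10 CPM (reads per 1000000 reads assigned to genes) in control replicate 2 and at least 2.5 times its level in control replicate 1, and its lowest level with levofloxacin was under 1.5 times its highest control level. They are 107 of the 15364 gene IDs in the count table and 0.769% of the 13919 IDs with prefixes Cz01 to Cz16 or Cz19, to which the choice was restricted. The genes were selected on these CPM values of the 6 libraries, so the difference between control replicates 2 and 1 is a description and is not tested here.

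The levofloxacin group held 3 libraries from strain ATCC 30412 after 15 days with 10 mg/L of the antibiotic, and the control group held 3 libraries from the same strain and day without it. All 6 libraries came from batch cultures grown with 30 g/L glucose in darkness, shaken at 150 rpm and held at 25 °C, and RNA was taken from 100 mL of culture. Libraries carry numbers 1 to 3 within a group, and nothing in the labels shows that they are separate cultures, so p-values measure only the spread between these libraries, which may be technical. Reads assigned to genes numbered 28482776 to 33005815 with levofloxacin and 29311743 to 36223195 in controls.

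C. zofingiensis grows in the light by photosynthesis and in the dark on glucose, and glucose makes it dismantle its photosynthetic membranes and store lipid and ketocarotenoids. Levofloxacin is a fluoroquinolone that blocks bacterial DNA gyrase and topoisomerase IV. In a batch culture nutrients run down as cells multiply, and transcript levels of an alga in such a culture differ with its stage of growth. No gene names or functions come with the IDs, so the genes are described by ID, level, coding length and place label, the labelled cells could not be set against marker genes, and no more than 4 IDs are printed. In bulk cultures, fewer cells that express a gene and less of its RNA per cell cannot be told apart.

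The genes were low in control replicate 1 and near the levofloxacin level in control replicate 2, with control replicate 3 in the gap. The median gene had 29.3, 31.4 and 31.2 CPM in levofloxacin replicates 1, 2 and 3, and 9.72, 33.2 and 18.5 CPM in control replicates 1, 2 and 3. The 107 genes together took 7879, 9577 and 8301 CPM in levofloxacin replicates 1, 2 and 3, against 2949, 9275 and 6628 CPM in control replicates 1, 2 and 3. The groups overlap, because control replicate 2 lies inside the levofloxacin range. The most abundant gene made up 23.3 to 28.4% of the sum with levofloxacin and 18.7 to 26.0% in controls, and the order of the control libraries was the same without it, at 2397, 7401 and 4904 CPM.

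**Figure D1:**
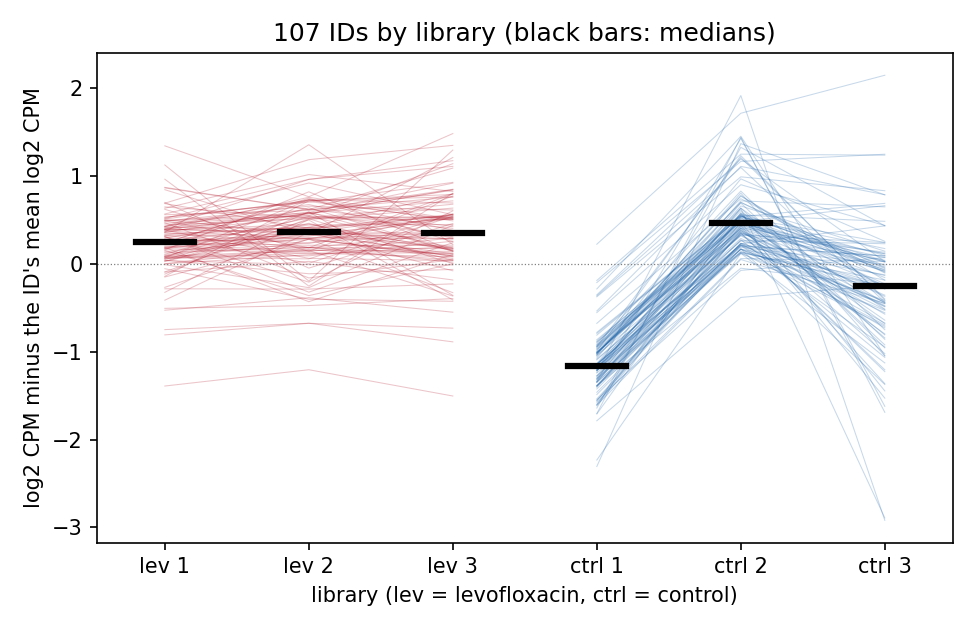
Each line is 1 of the 107 genes, drawn as log2 CPM minus the gene's mean log2 CPM over the 6 libraries (y axis), with levofloxacin libraries in red and control libraries in blue (x axis) and black bars at the medians. The medians of the levofloxacin libraries lie close together, though 24.3% of the genes differ at least 1.5-fold among these libraries. Control replicate 1 is low and control replicate 2 high, as the choice of genes requires, and control replicate 3 ranges widely between and beyond them.

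The ratio of control replicate 2 to control replicate 1 had a median of 2.92 over the genes and a range of 2.52 to 12.8. It was at least 3 in 49 genes, at least 4 in 12 and at least 5 in 6. No gene had fewer than 41 counts in control replicate 1 or fewer than 31 counts in any library. Even so, counting error alone left the exact 95% interval of the ratio (Clopper-Pearson on the counts of both libraries) reaching below 2.5 in 45 genes, with the lowest bound at 2.10. The genes were chosen on this same ratio and the intervals do not allow for that. An interval wholly above 2.5 is therefore no check of the ratio.

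The edges of the choice show no gap. The gene with the smallest ratio had 48.3 CPM in control replicate 2 and 19.2 in control replicate 1, a ratio of 2.52, while the nearest gene left out had 83.0 and 33.2 CPM. The gene with the smallest control replicate 2 level had 10.3 CPM, and the nearest left out had 9.80 CPM. For the third condition, the highest quotient of the lowest levofloxacin to the highest control library was 1.497 inside and 1.506 outside, and 13 genes that met both control conditions were left out by it. A further 281 IDs met the other conditions with a ratio between 2 and 2.5.

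The scale on which libraries are compared matters for this choice. The median log2 ratio of control replicate 2 to control replicate 1 over the 9501 eligible IDs with at least 10 CPM in control replicate 2 was 0.28 on the CPM scale, and 0.06 after TMM scaling, which corrects library totals for a few dominant transcripts and lowers each such log2 ratio by 0.21. With TMM-scaled CPM 51 genes met the conditions, all of them among the 107.

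Of the 9501 eligible IDs at that level, 120 (1.26%) were at least 2.5-fold higher in control replicate 2 than in control replicate 1. Another 219 IDs with at least 10 CPM in control replicate 1 differed by as much the other way. With TMM-scaled CPM these counts were 63 and 321. Between any 2 levofloxacin libraries 1 to 8 IDs differed by as much in either direction. With at least 10 CPM in the higher library, control replicate 3 against control replicate 1 gave 32 IDs, of which 20 were among the 107, and control replicate 2 against control replicate 3 gave 43, of which 23 were among the 107.

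The most abundant of the genes was Cz12g01050, with a coding length of 2361 bases. It had 1915, 2722 and 1933 CPM in levofloxacin replicates 1, 2 and 3, and 552, 1874 and 1724 CPM in control replicates 1, 2 and 3. Control replicate 1 stood alone below the other 5 libraries, and each levofloxacin library lay above each control, with levofloxacin replicates 1 and 3 close to control replicate 2. The log2 fold change of levofloxacin over control was 0.65 ± 0.38 (SE, n = 3 each) and did not pass the threshold of 0.05 (edgeR quasi-likelihood test, adjusted p = 0.24). Per length it averaged 757 FPKM (fragments per kilobase and 1000000 assigned reads), against a median of 21.1 FPKM over the 107 genes.

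Cz05g11130, with a coding length of 3132 bases, was the most abundant of those with a negative fold change. Its levels were 190, 200 and 172 CPM in levofloxacin replicates 1, 2 and 3, and 280, 758 and 752 CPM in control replicates 1, 2 and 3. Every levofloxacin library lay below every control, with control replicate 1 nearest to them. It fell by 1.69 ± 0.31 on the log2 scale (SE, n = 3 each; edgeR, adjusted p = 0.014).

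Cz14g21210 (coding length 3369 bases) had the highest control ratio of the set, 12.8, with an exact 95% interval of 9.32 to 17.99. That interval holds counting error alone and does not allow for the gene being picked for its high ratio. It had 7.16, 9.79 and 5.21 CPM in levofloxacin replicates 1, 2 and 3, and 1.40, 17.9 and 11.9 CPM in control replicates 1, 2 and 3. The levofloxacin libraries lay inside the control range, and the log2 fold change of -0.49 ± 0.67 did not pass (SE, n = 3 each; edgeR, adjusted p = 0.62). At 41 counts in control replicate 1 this gene had the fewest counts of the set in that library.

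Cz19g07200 (coding length 834 bases) had the next highest ratio, 8.90. Its levels were 14.9, 5.97 and 16.8 CPM in levofloxacin replicates 1, 2 and 3, and 2.90, 25.8 and 0.903 CPM in control replicates 1, 2 and 3. It differed within both groups, with control replicate 2 the highest library and control replicate 3 the lowest, at 31 counts. Its log2 fold change of 0.36 ± 0.96 did not pass (SE, n = 3 each; edgeR, adjusted p = 0.81).

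**Figure D2:**
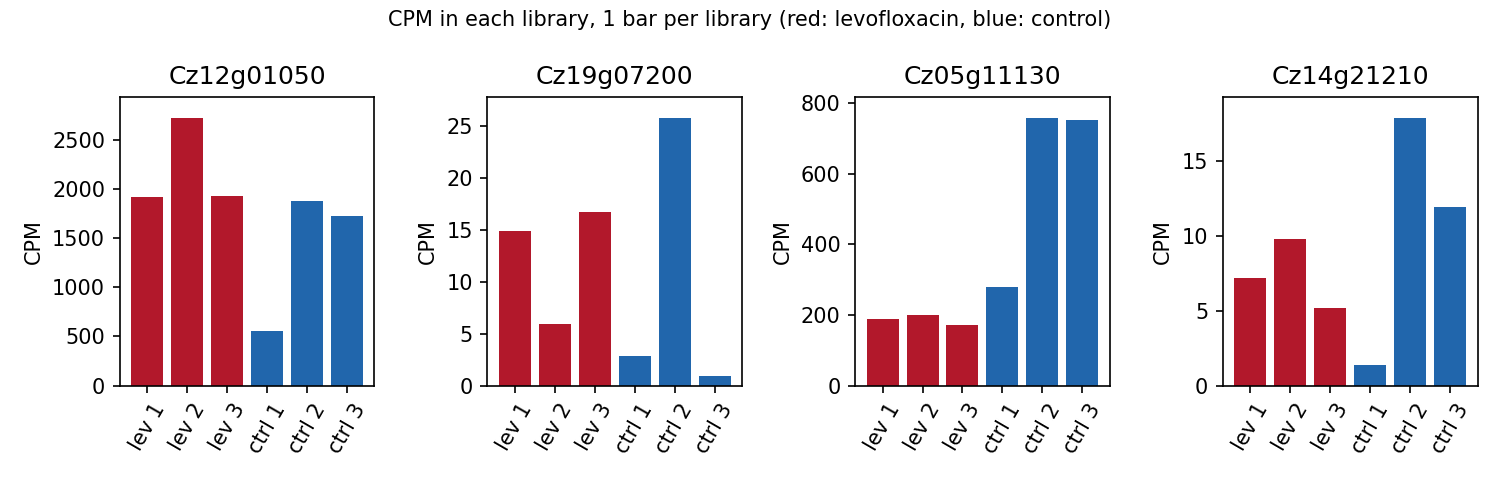
Bars give the CPM (y axis, from 0) of the 4 named IDs in each library (x axis), with levofloxacin in red and control in blue. Cz12g01050 is low in control replicate 1 alone, Cz19g07200 is low in control replicates 1 and 3, Cz05g11130 is lower in every levofloxacin library, and Cz14g21210 varies in both groups.

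Control replicate 3 entered the choice only where it was the highest control, but its place is measured between the controls that set the choice. It lay between control replicates 1 and 2 in 93 of the 107 genes (86.9%), where 54.4% of the eligible IDs did so. It lay below control replicate 1 in 7 genes and above control replicate 2 in 7. The wide gap set by the choice leaves more room for a middle value. Among IDs that were not chosen, control replicate 3 lay between in 83.0% at a ratio of 1.5 to 2 and in 92.9% at 2 to 2.5. The share in the 107 genes is therefore not read as a sign that they are graded.

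On the log2 scale, with control replicate 1 at 0 and control replicate 2 at 1, control replicate 3 stood at a median of 0.56 (quartiles 0.26 and 0.76). In 61 genes it stood at 0.5 or more, nearer to control replicate 2, and in 46 genes nearer to control replicate 1. The 61 genes had medians of 29.9, 32.5 and 31.8 CPM in levofloxacin replicates 1, 2 and 3, and 12.3, 33.5 and 27.3 CPM in control replicates 1, 2 and 3. The 46 genes had medians of 24.8, 24.5 and 28.8 CPM in levofloxacin replicates 1, 2 and 3, and 9.06, 30.6 and 10.3 CPM in control replicates 1, 2 and 3. The split itself sets control replicate 3 nearer to control replicate 1 in the 46 genes and nearer to control replicate 2 in the 61. These medians describe the split and do not show separate classes of genes. In 23 of the 107 genes control replicate 2 was at least 2.5 times control replicate 3, in 21 control replicate 3 was at least 2.5 times control replicate 1 (1 of them with under 10 CPM in control replicate 3), and 63 met neither.

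Levofloxacin libraries compared differently with each control. Every levofloxacin library lay above control replicate 1 in 101 genes (94.4%, against 58.3% of eligible IDs) and below it in 4. Against control replicate 2 all lay above in 34 genes and below in 49 (31.8% and 45.8%, where eligible IDs gave 29.8% and 47.0%). Both of these controls were used to choose the genes, and the condition on the lowest levofloxacin library also limits how far above control replicate 2 they can lie.

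Against control replicate 3, every levofloxacin library lay above in 81 genes (75.7%, against 44.9% of eligible IDs) and below in 15 (14.0%, against 36.7%). The median log2 difference of the levofloxacin libraries from control replicate 3 was 0.59 over the 107 genes and 0.04 over the other 9394 eligible IDs. It was 0.36 in the unchosen IDs with a control ratio of 2 to 2.5. With 1 library as control this has no replicate check.

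**Figure D3:**
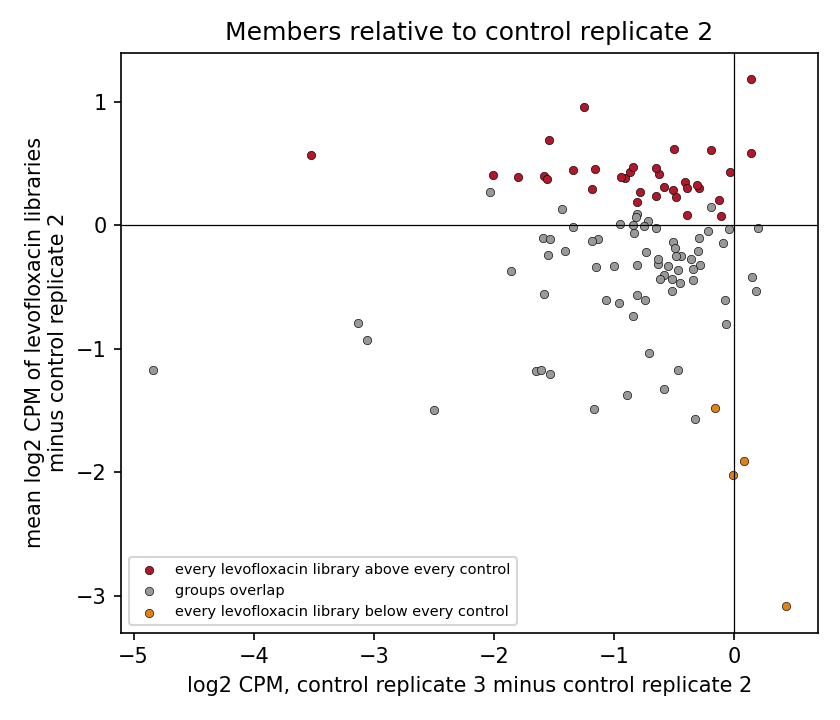
Each point is 1 of the 107 genes, with control replicate 3 (x axis) and the mean of the levofloxacin libraries (y axis) both as log2 CPM minus control replicate 2, coloured by whether the libraries of the groups overlap. Most points lie left of 0, where control replicate 3 is below control replicate 2, and the 4 genes with every levofloxacin library below every control lie between -0.16 and 0.43 on the x axis.

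In the comparison of the groups, 13 of the 107 genes rose and 5 fell with levofloxacin, while 89 did not pass (edgeR quasi-likelihood test over 14236 IDs, Benjamini-Hochberg adjusted p under 0.05). All 107 passed the filter on low counts. These are 12.1% and 4.67% of the 107 genes, where 10.1% of all tested IDs rose and 12.1% fell. The choice used both groups of this comparison, so nothing is read from these shares. Every levofloxacin library lay above every control in 34 genes, where 22.6% of all tested IDs did so, and below every control in 4, where 20% did so. The median log2 fold change was 0.43 over the 107 genes and 0.00 over all tested IDs, and it was positive in 88 genes and negative in 19. Without control replicate 1 the median over the 107 genes was 0.15, and without control replicate 2 it was 0.92. The choice used these libraries, so nothing is read from the size or sign of the fold change or from the shares without overlap.

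The 13 genes that rose did so by 0.83 to 1.87 on the log2 scale (median 1.09), and in each of them the groups did not overlap. The largest change was that of a Cz04 gene of 3342 coding bases. It had 70.5, 99.4 and 111 CPM in levofloxacin replicates 1, 2 and 3, and 9.28, 47.5 and 19.97 CPM in control replicates 1, 2 and 3. The levofloxacin libraries were all above the highest control, control replicate 2, and the log2 fold change was 1.87 ± 0.48 (SE, n = 3 each; edgeR, adjusted p = 0.031).

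The 5 genes that fell were Cz05g11130, another on Cz05, 1 on Cz01 and 2 on Cz08. The 2 on Cz08 are direct neighbours in ID order, and whether their reads are independent was not tested. The larger change on Cz08 was that of a gene of 975 coding bases, at 5.30, 6.03 and 4.90 CPM in levofloxacin replicates 1, 2 and 3, and 16.2, 45.7 and 61.6 CPM in control replicates 1, 2 and 3. Its groups were well apart, with control replicate 1 the lowest of the controls, and it fell by 2.95 ± 0.42 on the log2 scale (SE, n = 3 each; edgeR, adjusted p = 0.0078). The second on Cz08 (coding length 696 bases) had 8.85, 9.70 and 9.33 CPM with levofloxacin and 13.4, 34.8 and 36.8 CPM in control replicates 1, 2 and 3. In the gene on Cz01 (coding length 1575 bases), levels were 58.0, 64.0 and 57.1 CPM with levofloxacin and 64.5, 166 and 149 CPM in control replicates 1, 2 and 3, so that control replicate 1 nearly met the levofloxacin libraries. The other Cz05 gene (coding length 1113 bases) was the only one of the 5 with overlapping groups, at 54.3, 55.5 and 58.7 CPM with levofloxacin and 53.2, 167 and 133 CPM in control replicates 1, 2 and 3.

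All 5 genes that fell belonged to the 61 whose control replicate 3 stood nearer to control replicate 2, of which 5 rose. Of the other 46 genes 8 rose and 0 fell, and of all tested IDs 10.1% rose and 12.1% fell. Control replicate 3 defines this split and is part of the comparison, where a low level raises the fold change. Nothing is therefore read from these counts.

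The calls depended on the libraries and on the test. Without levofloxacin replicate 1, 0 of the 107 genes rose and 0 fell, where 0.746% and 0.983% of all tested IDs did. Without levofloxacin replicate 2, 0 rose and 1 fell (3.33% and 2.71% of all tested IDs), and without levofloxacin replicate 3, 0 rose and 0 fell (0.711% and 0.962%). Without control replicate 1, which the choice made low, 17 rose and 11 fell (12.2% and 13.1%). Without control replicate 2, which the choice made high, 56 rose and 4 fell (14.3% and 16.4%), and without control replicate 3, 1 rose and 3 fell (3.83% and 4.34%). DESeq2 called 31 higher and 5 lower (12.9% and 15.3%), and edgeR with the replicate number as a block 32 and 5 (9.54% and 10.7%). Scaling by library totals alone gave 6 and 4 (8.56% and 9.83%), and limma on log2(FPKM + 1) 8 and 3 (7.92% and 7.67%).

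The 107 genes also varied more than other genes among the levofloxacin libraries, which the choice used only through the lowest of the 3. The quotient of the highest to the lowest levofloxacin library had a median of 1.24 in the 107 genes and 1.14 in the other 9394 eligible IDs. It reached 1.5 in 26 of the 107 (24.3%), where 3.89% of the eligible IDs did so, and 2 in 3 genes, where 0.547% did so. The share was 22.5% in the 120 IDs before the levofloxacin condition was applied, and 22.4% of the 107 with TMM-scaled CPM. Among genes with a levofloxacin mean of at least 20 CPM, it was 23.9% of 71 of the 107 and 2.96% of 7062 others. These sets were not matched for level, and whether level bears on the spread was not tested. The median gene of the 107 had 926 counts in a levofloxacin library and none had fewer than 107.

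**Figure D4:**
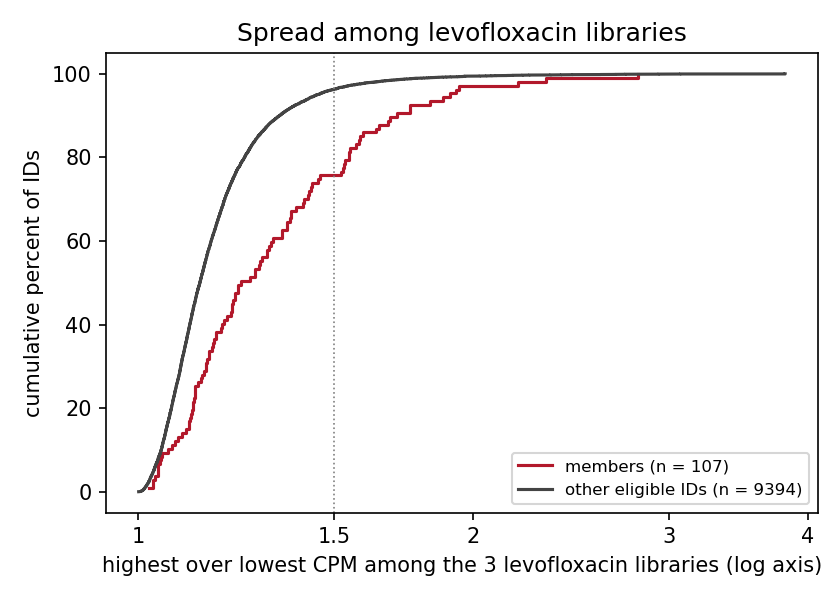
Lines give the cumulative percent of IDs (y axis) whose highest levofloxacin library is up to a given multiple of the lowest (x axis, log scale), for the 107 genes in red and the other 9394 eligible IDs in black, with a dotted line at 1.5. The red line lies to the right: 24.3% of the 107 genes are at or beyond 1.5.

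The 3 genes with a spread of at least 2 were all low in control replicates 1 and 3. Cz19g07200 had the highest, 2.81, with levofloxacin replicate 2 the low library. Another Cz05 gene, with a coding length of 543 bases, was also lowest in levofloxacin replicate 2, at 117, 50.2 and 104 CPM in levofloxacin replicates 1, 2 and 3, and 23.7, 161 and 19.4 CPM in control replicates 1, 2 and 3. A Cz02 gene, with a coding length of 1563 bases, was highest in that library, at 53.9, 107 and 48.9 CPM in replicates 1, 2 and 3, and 12.9, 114 and 13.0 CPM in control replicates 1, 2 and 3. In both, the groups overlap because control replicate 2 is as high as the levofloxacin libraries or higher. Of the 26 genes with a spread of at least 1.5, 17 were among the 46 whose control replicate 3 was nearer to control replicate 1 and 9 among the other 61.

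Among the levofloxacin libraries, replicate 1 was most often the low one for these genes. It was the lowest of the 3 in 49 of the 107 (45.8%), where 26.8% of the eligible IDs did so, and the highest in 17 (15.9%, against 36.8% of the other eligible IDs). The median log2 difference of levofloxacin replicate 1 from the mean of replicates 2 and 3 was -0.07 in the 107 genes and 0.02 in the others. With TMM scaling these medians were -0.10 and 0.00, with replicate 1 the lowest in 50.5% of the 107 and 32.6% of the others. The shift is small beside the fold between control replicates 2 and 1. The labels do not say whether libraries with the same number have anything in common.

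Among IDs with a control ratio of at least 1, both measures grew with that ratio, including below the threshold that chose the genes. IDs with a ratio under 1 are not in these classes, and the opposite set described below had a larger levofloxacin spread. Classes of this ratio were set after the data had been seen. Those from 2.5 upward were taken before the levofloxacin condition and hold the 13 IDs it left out. The share of IDs with a levofloxacin spread of at least 1.5 was 2.52% of 4927 IDs with a ratio of 1 to 1.5, 3.43% of 1692 with 1.5 to 2, 4.76% of 294 with 2 to 2.5, 13.1% of 61 with 2.5 to 3 and 32.2% of 59 with 3 or more. Levofloxacin replicate 1 was the lowest of its group in 25.3%, 30.9%, 36.7%, 39.3% and 55.9% of the same classes.

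**Figure D5:**
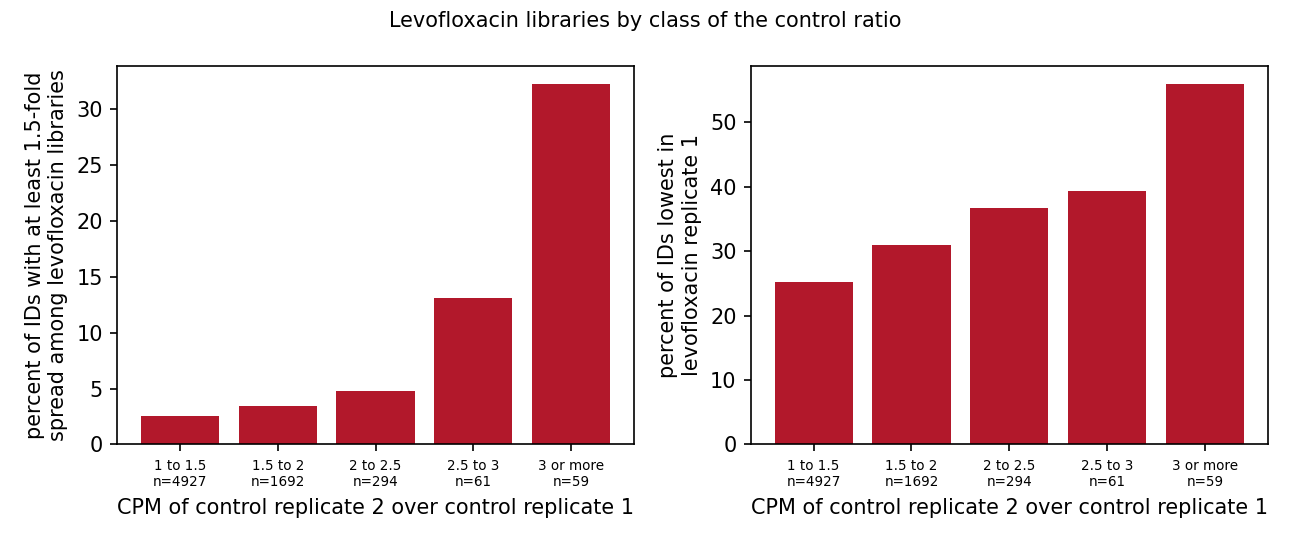
Bars give, for classes of the CPM ratio of control replicate 2 to control replicate 1 (x axis, with the number of IDs), the percent of IDs with at least a 1.5-fold spread among levofloxacin libraries (left y axis) and the percent lowest in levofloxacin replicate 1 (right panel's y axis). Among these classes, which start at a ratio of 1, both percentages are highest at a ratio of 3 or more, at 32.2% and 55.9%.

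The opposite set, with control replicate 1 at least 10 CPM and at least 2.5 times control replicate 2 and with the highest levofloxacin library above the lowest control divided by 1.5, held 162 IDs. Control replicate 3 lay between the other controls in 86.9% of the 107 genes and in 87.7% of the 162 (142 IDs). A levofloxacin spread of at least 1.5 occurred in 24.3% of the 107, against 40.7% of the 162. Levofloxacin replicate 1 was the lowest of its group in 45.8% of the 107 and 13.0% of the 162, and the highest in 15.9% and 52.5% of them. It was thus most often the low library in the first set and most often the high one in the opposite set, a difference that was not tested.

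Coding length, which the choice did not use, differed little. It had a median of 1176 bases in the 107 genes (quartiles 702 and 2007), 1248 bases in the other eligible IDs (750 and 2052) and 1001 bases in the 162 of the opposite set (727 and 1586). Lengths under 600 bases made up 14.0% of the 107 and 17.2% of the others, and lengths over 3000 bases 11.2% and 12.5%. Per length the 107 genes were of moderate level, with a median over genes of 24.3 to 26.0 FPKM in levofloxacin libraries, against 9.38, 29.6 and 18.2 FPKM in control replicates 1, 2 and 3. The other eligible IDs had medians of 32.0 to 32.8 FPKM in levofloxacin libraries and 27.4 to 33.6 FPKM in controls.

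The genes were spread over all 17 eligible prefixes, read here as chromosomes because the published annotation of the species names its genes so. The share of IDs with at least 10 CPM in control replicate 2 that belonged to the set ran from 0.448% on Cz06 (3 of 669) to 1.88% on Cz12 (9 of 478), and Cz01 held the most, 14. Few stood next to each other: 2 pairs were adjacent in ID order, so that 4 of the 107 genes (3.74%) had another as a direct neighbour. The 2 Cz08 genes that fell with levofloxacin are such a pair. Of the other IDs with the eligible prefixes, at any CPM level, 208 (1.51%) had a gene of the set as a direct neighbour. Because the 4 genes come as pairs they are not independent, and the difference was not tested. The other direct neighbours with at least 10 CPM in control replicate 2 numbered 139 and had a median control ratio of 1.27, against 1.21 in the other eligible IDs. A ratio of at least 1.5 was reached by 25.2% of these neighbours and 21.3% of the others. Neighbours are neighbours by ID number, which could not be set against coordinates.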

How the data were processed

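RNA-seq libraries were grouped by their titles, 3 with levofloxacin and 3 controls. The deposited table of read counts per gene ID is unnormalised. The submitters' processing notes name HISAT2 2.0.6 and HTSeq 0.6.1. A build, an annotation and a strand setting were not given in the sources used here, so reads of overlapping, antisense or near-identical genes cannot be told apart. The authors' deposited FPKM values equal count over length and library total, which gave 15199 coding lengths (99.7% multiples of 3). CPM used column totals. Libraries were made from 1 μg RNA, per the labels' protocols.

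Testing of counts used edgeR 4.0.16 under R 4.3.3 (filterByExpr, TMM, quasi-likelihood F test, Benjamini-Hochberg threshold 0.05); the SE is the fold change over the square root of F. DESeq2 1.42.0, limma 3.58.1 on log2(FPKM + 1) and other scalings, filters and library sets were alternatives. The fit was tested on simulated data. Members, lists and tests were chosen with earlier results of these data known. The IDs named were, for each sign of the fold change, the one with the highest mean CPM and the one with the highest control ratio; other genes are given by prefix and length and were chosen after their values were seen. Without molecular identifiers on the reads, intervals hold counting error alone.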

Additional observations from a re-analysis of the deposited data

How the results depend on the processing

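The number of genes chosen was 107, and it was 388 with a control ratio of at least 2, 49 with at least 3 and 51 with TMM-scaled CPM; a CPM minimum of 5 or 20, another or no levofloxacin condition, FPKM ratios and leaving out control replicate 3 or a levofloxacin library from the condition gave 77 to 135. The 13 genes called higher were 31 with DESeq2, 6 with library totals only and 8 with limma on log2(FPKM + 1), and the 5 called lower were 3 with limma. Of all tested IDs, the main fit called 10.1% higher, and these alternatives in turn 12.9%, 8.56% and 7.92%. The main fit called 12.1% of all tested IDs lower, and limma 7.67%. Leaving out 1 library at a time gave 0 to 56 called higher, 0 to 11 called lower and a median log2 fold change of 0.15 to 0.92. In those fits 0.711% to 14.3% of all tested IDs were called higher and 0.962% to 16.4% lower. The median log2 fold change of the 107 genes was 0.60 with limma on log2(FPKM + 1). With the replicate number as a block 32 genes were called higher and 5 lower, against 9.54% and 10.7% of all tested IDs. The median log2 fold change was then 0.62. Deviations from group means of libraries with the same number correlated at 0.16, 0.05 and 0.04 across IDs. The first, of the replicate 1 libraries, was the highest of all pairs across the groups, and levofloxacin replicate 1 correlated at -0.16 with control replicate 2. Levofloxacin replicate 3 correlated more with control replicate 2 (0.10) than with control replicate 3. These small values and the labels do not settle whether the numbers pair the samples, so the main fit did not pair them. The median place of control replicate 3 was 0.56 with TMM scaling and 0.67 in genes with at least 10 CPM in control replicate 1. The median levofloxacin spread was 1.26 with TMM scaling and 1.10 to 1.16 with 1 levofloxacin library left out, where the other eligible IDs had 1.06 to 1.09. At 5 places apart 0% of the genes had another of the set. Some of these changes follow from the settings: a higher ratio threshold keeps fewer genes, and a spread over fewer libraries cannot exceed that over all of them. The cause of the other changes was not tested. The alternatives that leave out levofloxacin libraries from the condition, the difference and the spread, and the sets for the spread, were added after seeing the data.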
